A study of Caenorhabditis elegans with 8 samples.

Results

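The neuropeptide-like protein (*nlp*) genes of *C. elegans*, together with the pigment dispersing factor genes *pdf-1* and *pdf-2*, the nematocin gene *ntc-1* and *snet-1*, were examined in worms with defective sensory cilia. The probe sets were chosen by name, as those annotated with exactly 1 gene symbol of the *nlp* series or 1 of these other symbols. The 6 genes *nlp-27* to *nlp-31* and *nlp-34*, which encode antimicrobial peptides of the epidermis, were left out. This gave 76 probe sets for 76 genes, 72 of them *nlp* genes, of 29317 probe sets on the array. No expression value was used to choose them. RNA came from whole day 1 adults that had been synchronised by bleaching, in 4 samples of *dyf-1(mn335)* and 4 of the wild-type strain N2, with many worms pooled per sample. *dyf-1* encodes a ciliary protein that helps the kinesin OSM-3 to build the distal segments of sensory cilia. The mutant strain carries 1 allele, and the sources used here do not describe its lesion. No treatment is given for either strain. Each value is a log2 expression level from an Affymetrix gene array after robust multi-array averaging (RMA), so that a difference of 1 is a 2-fold change.

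Neuropeptides are cut from larger precursor proteins, modified, packed into dense core vesicles and released by neurons, gut and other secretory cells. They act mostly through G protein-coupled receptors, at synapses and at a distance, and set slow behavioural states such as sleep, arousal, roaming and egg laying. The *nlp* genes are a collection and not a single family: they encode the worm's neuropeptides that are neither insulin-like nor of the FMRFamide type. The PDF peptides are relatives of a clock neuropeptide of insects, and nematocin is the worm's relative of vasopressin and oxytocin.

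Wild-type replicate 4 was unlike the other arrays of its strain. Over all probe sets it correlated with the other wild-type arrays at 0.958 to 0.974 and with mutant replicates 1 to 3 at 0.976 to 0.978, whereas wild-type replicates 1 to 3 correlated with each other at 0.987 to 0.992. The correlations of mutant replicate 4 within its own strain were 0.978 to 0.984, and those of mutant replicates 1 to 3 with each other 0.993 to 0.994. With wild-type replicates 1 to 3, mutant replicate 4 correlated at 0.957 to 0.961. For mutant replicates 1 to 3 these values were lower, at 0.932 to 0.956. The strains were compared with limma, and a probe set was called at a Benjamini-Hochberg adjusted p under 0.01 over all 29317 probe sets. The *dyf-1* transcript had log2 levels of 6.85, 7.02, 7.30 and 7.48 in *dyf-1(mn335)* and of 6.26, 6.01, 5.61 and 6.07 in wild-type, and was higher in the mutant by 1.18 (adjusted p = 0.00306). Without knowledge of the lesion this level does not check the labels. After centring of the arrays on their medians, the typical (median) probe set went from a log2 fold change of -0.04 to -0.19, and the higher share of all calls from 65.5% to 47.8%.

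Of the 76 peptide genes, 10 were higher in *dyf-1(mn335)* than in wild-type and 1 was lower. The higher ones were *nlp-53*, *nlp-18*, *nlp-68*, *nlp-60*, *snet-1*, *nlp-8*, *nlp-67*, *nlp-49*, *nlp-55* and *nlp-15*, with log2 fold changes from 0.65 to 1.52, and 8 of them changed at least 2-fold. The lower one was *nlp-62*, at -1.26. Of all probe sets, 6.56% were called higher and 3.46% lower, so that the higher peptide genes made up 13.2% of their set against 6.56%. The difference between these shares was not tested. The 76 genes had a median log2 fold change of 0.23, with 49 of them above 0, beside -0.04 over all probe sets, of which 46.6% were above 0. Without mutant replicate 4 the median of the 76 genes was 0.12. With both replicate 4 arrays left out it was 0.054, and 39 of the 76 genes were above 0. The median over all probe sets was then -0.046. After centring, 7 peptide genes were higher and 2 lower, beside 5.17% and 5.64% of all probe sets. The median of the 76 genes was then 0.07, beside -0.19 over all probe sets. Centring shifts both medians alike, so that the 0.27 between them could not change. Cyclic loess normalisation can change it, and the medians were then 0.15 and -0.0024, which is 0.15 apart. In the same arrays, of 15 pan-neuronal markers, 8 were higher and 0 lower, with a median log2 fold change of 0.70, and the log2 of their summed level was 13.87 to 13.92 in *dyf-1(mn335)* and 13.25 to 13.59 in wild-type. The lowest wild-type mean among these markers was that of *ric-19*, at 6.50. In RNA of whole worms, a changed share of neuronal against other tissue and more RNA of these genes per neuron cannot be told apart. The part of neuronal content in the levels of the peptide genes was not tested.

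The calls rested on all arrays in unequal measure. Without wild-type replicate 4, 16 of the 76 genes were higher and 8 lower, beside 13.3% and 12.9% of all probe sets, and all 11 genes called over 8 arrays were among them. Without mutant replicate 4, 6 were higher and 1 lower, beside 5.99% and 2.46%. Without both, 18 were higher and 14 lower, beside 33.3% of all probe sets in either direction. When 1 of the other 6 arrays was left out, 4 or 5 genes were higher and 0 were lower, beside 3.18% to 4.06% and 1.11% to 1.69% of all probe sets. *nlp-53*, *nlp-8*, *nlp-67* and *snet-1* passed under each of the 8 omissions. *nlp-15*, *nlp-18*, *nlp-49* and *nlp-55* passed, among these omissions, only without wild-type replicate 4.

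**Figure D1:**
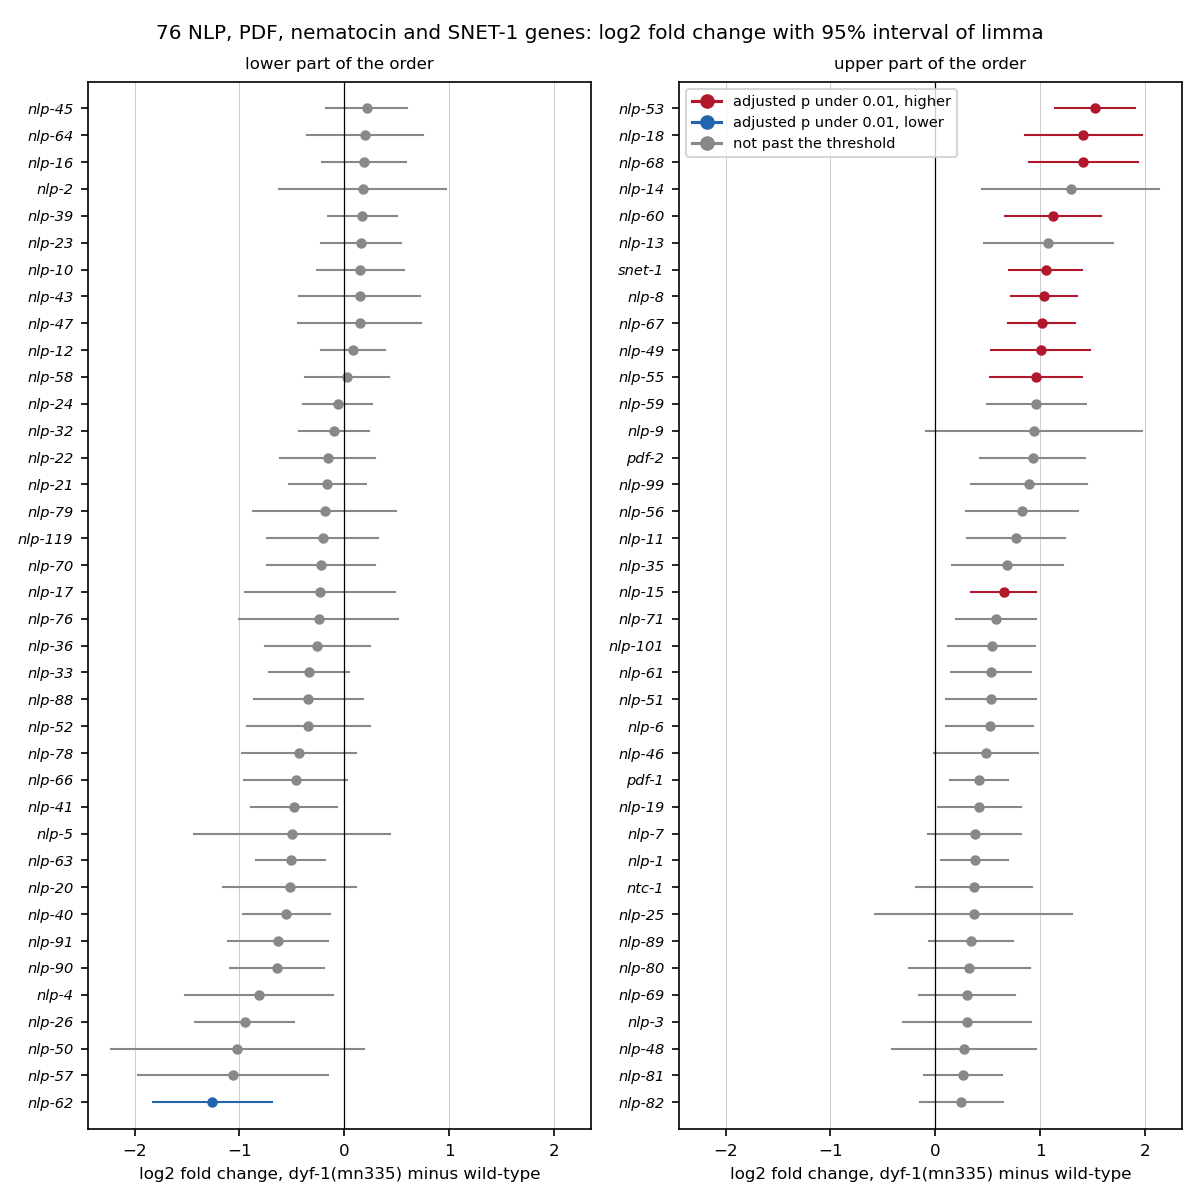
Log2 fold change of the 76 peptide genes, *dyf-1(mn335)* minus wild-type, with the 95% interval of limma, ordered by size over 2 panels; red marks the 10 genes called higher, blue the 1 called lower and grey the 65 others. *nlp-53* lies at 1.52 and *nlp-62* at -1.26; the wide bars of *nlp-9*, *nlp-50*, *nlp-5* and *nlp-25* belong to genes whose replicate 4 arrays lay far from the others.

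Among the higher genes, *nlp-53*, *nlp-18*, *nlp-68*, *nlp-60*, *nlp-67*, *nlp-55* and *nlp-15* are outside the list of roles used below. *nlp-53* had log2 levels of 9.86, 10.01, 9.90 and 10.29 in *dyf-1(mn335)* replicates 1 to 4 and of 8.34, 8.25, 8.55 and 8.83 in wild-type replicates 1 to 4, and values below follow the same order. The strains did not overlap, and replicate 4 was the highest in both strains. The difference of 1.52 (standard error 0.17, 2.88-fold, adjusted p = 0.000562) was larger than the SD in either strain (10.02 ± 0.19 against 8.49 ± 0.26, SD, n = 4).

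*nlp-18* had 9.49, 9.51, 9.50 and 9.99 in the mutant and 8.08, 7.78, 8.05 and 8.93 in wild-type. Mutant replicates 1 to 3 lay close together and wild-type replicate 4 was high, yet the strains did not overlap. *nlp-18* rose by 1.41 (standard error 0.25, 2.66-fold, adjusted p = 0.00433), and without wild-type replicate 4 the difference was 1.65. *nlp-68* had 7.99, 7.70, 7.99 and 7.34 in the mutant and 6.18, 6.23, 6.03 and 6.94 in wild-type. Here the replicate 4 arrays lay towards each other, the mutant one lowest and the wild-type one highest, and a gap remained between the strains. *nlp-68* differed by 1.41 (standard error 0.23, 2.66-fold, adjusted p = 0.00318), and by 1.61 without wild-type replicate 4.

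*nlp-60* had 5.22, 4.96, 5.32 and 5.87 in the mutant and 4.13, 4.13, 4.52 and 4.10 in wild-type. Its wild-type mean was dim, under a log2 level of 5, where fold changes are poorly determined. The fitted difference was 1.12 (standard error 0.21, 2.18-fold, adjusted p = 0.0051). *nlp-67* had 6.94, 6.78, 7.0 and 6.64 in the mutant and 5.80, 5.61, 5.95 and 5.96 in wild-type. The arrays of each strain lay within a narrow band and the bands were clearly apart. *nlp-67* rose by 1.01 (standard error 0.14, 2.02-fold, adjusted p = 0.0016).

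*nlp-55* had 7.88, 7.86, 7.84 and 8.37 in the mutant and 6.60, 6.98, 7.21 and 7.31 in wild-type, with mutant replicate 4 above the other mutant arrays. It differed by 0.96 (standard error 0.20, 1.95-fold, adjusted p = 0.00826), which no longer passed after centring. *nlp-15* had 8.15, 8.39, 8.41 and 8.07 in the mutant and 7.42, 7.64, 7.64 and 7.70 in wild-type, and mutant replicate 4 was the lowest of its strain. Its rise of 0.65 (standard error 0.14, 1.57-fold, adjusted p = 0.0096) was the smallest among the called genes and did not pass after centring or after cyclic loess normalisation.

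*nlp-62* was the only gene of the set called lower. It had 4.37, 4.40, 4.21 and 5.03 in the mutant and 5.82, 6.07, 6.04 and 5.13 in wild-type. The replicate 4 arrays came near each other, so that the strains were barely apart, and the mutant mean was dim. *nlp-62* fell by 1.26 (standard error 0.25, adjusted p = 0.00767). For all 11 called genes the arrays of the strains did not overlap, which gives a p of 0.0286 in the exact two-sided permutation test. This is the smallest p that 4 arrays against 4 allow. The genes were called by limma on the same arrays, so that this p adds no separate support. Of all probe sets, 12.6% had every mutant array above every wild-type array and 11.1% every mutant array below.

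**Figure D2:**
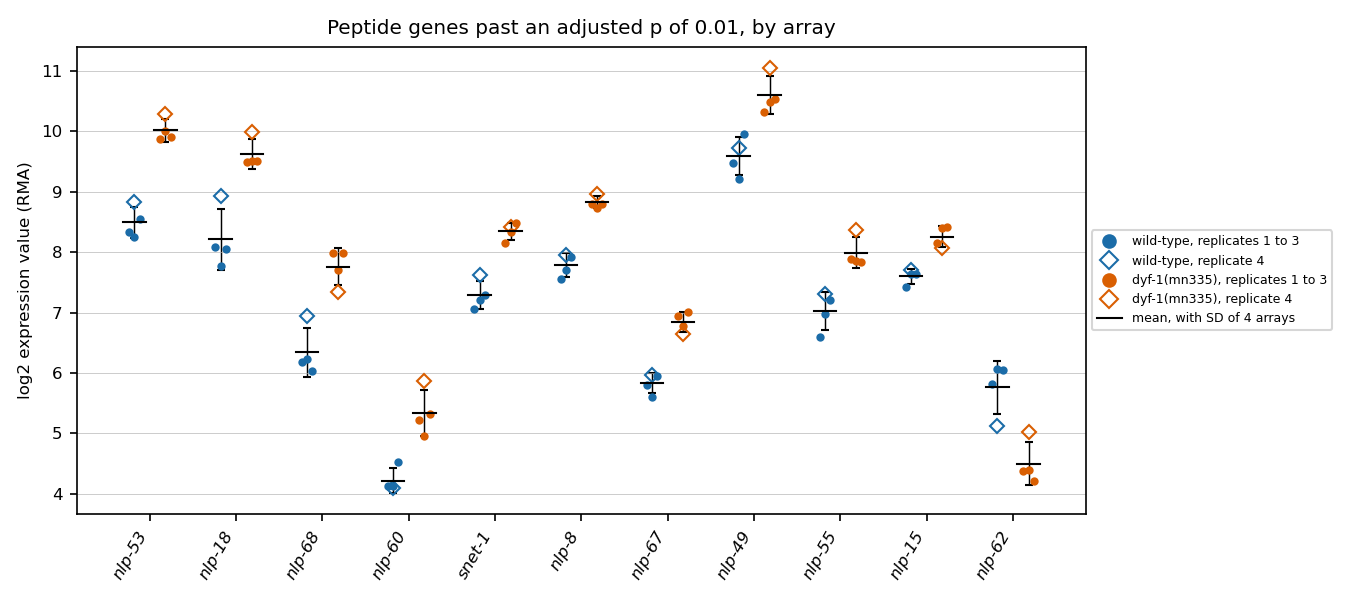
Log2 expression level of the 11 called peptide genes in each array, blue for wild-type and orange for *dyf-1(mn335)*, with filled circles for replicates 1 to 3, open diamonds for replicate 4, and the mean and SD of 4 arrays in black. The strains do not overlap for any of the 11 genes, and for *nlp-68* and *nlp-62* the diamonds of the strains lie near each other.

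Genes on a list of roles drawn up for this report were examined by role, 15 of the 76 in all. The list is not complete, and genes outside it can have known functions. Among peptides of sleep, *nlp-8* and *nlp-14* encode products of the ALA neuron that act in sleep after cellular stress, and *nlp-22* promotes quiescence during larval lethargus. *nlp-8* had 8.79, 8.73, 8.80 and 8.97 in the mutant and 7.55, 7.71, 7.92 and 7.96 in wild-type. All mutant arrays lay above the wild-type arrays, and the mutant arrays lay close together. *nlp-8* rose by 1.04 (standard error 0.14, 2.05-fold, adjusted p = 0.00125). *nlp-14* had 8.60, 8.41, 8.45 and 7.81 in the mutant and 6.42, 6.80, 6.65 and 8.24 in wild-type. Wild-type replicate 4 lay above mutant replicate 4 and far above the other wild-type arrays. The log2 fold change of *nlp-14*, 1.29 (standard error 0.37, adjusted p = 0.0342), did not pass, and without wild-type replicate 4 it was 1.70 and passed (adjusted p = 0.000389). *nlp-22* was dim in both strains, at 3.53 ± 0.12 and 3.69 ± 0.40 (SD, n = 4), with a log2 fold change of -0.16 (95% interval -0.61 to 0.29, adjusted p = 0.584). Its arrays read 3.71, 3.53, 3.43 and 3.46 in the mutant and 3.48, 3.24, 4.07 and 3.98 in wild-type.

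*nlp-49* encodes a peptide of arousal that acts through the receptor SEB-3. It had 10.32, 10.48, 10.54 and 11.04 in the mutant and 9.48, 9.21, 9.96 and 9.72 in wild-type. Mutant replicate 4 was the highest array, and a gap remained between the strains. *nlp-49* rose by 1.0 (standard error 0.21, 2.01-fold, adjusted p = 0.00936). This call was near the threshold and did not pass after centring.

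Among peptides of locomotion, *pdf-1* and *pdf-2* encode ligands of the receptor PDFR-1, which promotes roaming, and *nlp-12* encodes a cholecystokinin-like peptide of the DVA neuron. *pdf-2* had 8.52, 8.57, 8.92 and 9.51 in the mutant and 8.0, 7.74, 8.13 and 7.94 in wild-type. The strains did not overlap (exact two-sided permutation test, p = 0.0286), but the spread of the mutant arrays was wide. A log2 fold change of 0.93 for *pdf-2* (standard error 0.22, adjusted p = 0.0163) did not pass limma's threshold. *pdf-1* had 7.76, 7.86, 7.82 and 8.01 in the mutant and 7.36, 7.45, 7.39 and 7.57 in wild-type, again without overlap. The *pdf-1* difference of 0.42 (standard error 0.12, adjusted p = 0.0354) did not pass. *nlp-12* had 6.87, 6.91, 6.83 and 6.72 in the mutant and 6.99, 6.76, 6.54 and 6.73 in wild-type. The mutant arrays lay inside the wild-type range, and the difference was 0.079 (95% interval -0.23 to 0.38, adjusted p = 0.691).

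Among peptides of olfactory behaviour and learning, *snet-1* encodes a peptide that regulates olfactory plasticity and is held in check by the peptidase NEP-2. *snet-1* had 8.16, 8.33, 8.48 and 8.42 in the mutant and 7.06, 7.21, 7.30 and 7.62 in wild-type. Each mutant array was above the highest wild-type array, which was replicate 4. *snet-1* rose by 1.05 (standard error 0.15, 2.07-fold, adjusted p = 0.00189). *nlp-1*, which encodes a peptide of the AWC olfactory neurons that acts through NPR-11, had 5.94, 5.84, 5.87 and 5.69 in the mutant and 5.76, 5.36, 5.43 and 5.31 in wild-type. Mutant replicate 4 lay below the highest wild-type array, and the difference of 0.37 (standard error 0.14, adjusted p = 0.0828) did not pass. The nematocin gene *ntc-1*, which acts in mating and in learning, had 5.44, 5.42, 5.47 and 5.94 in the mutant and 5.50, 5.43, 5.40 and 4.47 in wild-type. Mutant replicates 1 to 3 and wild-type replicates 1 to 3 lay at the same level, with replicate 4 high in the mutant and low in wild-type. The difference of 0.37 (95% interval -0.18 to 0.92, adjusted p = 0.295) did not pass.

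Neither gene of egg laying passed. *nlp-3*, which is used by the HSN neurons to promote egg laying, had 8.01, 8.10, 8.40 and 9.25 in the mutant and 8.26, 8.10, 8.39 and 7.80 in wild-type. Mutant replicate 4 was the only array above 9, and the log2 fold change was 0.30 (95% interval -0.31 to 0.91, adjusted p = 0.442). *nlp-7*, whose peptides inhibit egg laying, had 9.63, 9.73, 9.82 and 10.37 in the mutant and 9.43, 9.35, 9.87 and 9.40 in wild-type. The strains overlapped, and the log2 fold change was 0.37 (95% interval -0.068 to 0.82, adjusted p = 0.19).

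In the gut, *nlp-40* encodes the pacemaker peptide that the intestine releases in each defecation cycle and that AEX-2 receives. It had 7.89, 7.84, 7.90 and 8.32 in the mutant and 8.73, 8.62, 8.70 and 8.11 in wild-type. Replicates 1 to 3 of the strains were apart, while mutant replicate 4 lay above wild-type replicate 4. A difference of -0.55 (standard error 0.18, adjusted p = 0.0546) did not pass over 8 arrays, and without wild-type replicate 4 it was -0.70 and passed (adjusted p = 0.00615). *nlp-24*, which encodes opioid-like peptides of feeding that act through NPR-17, had 11.73, 11.80, 11.74 and 12.11 in the mutant and 11.94, 11.80, 12.12 and 11.77 in wild-type. Its difference was -0.062 (95% interval -0.39 to 0.27, adjusted p = 0.777). *nlp-47*, which encodes a relative of gonadotropin-releasing and adipokinetic hormones, had 8.32, 8.54, 8.37 and 9.37 in the mutant and 8.62, 8.48, 8.86 and 8.06 in wild-type. The arrays overlapped, and the difference was 0.15 (95% interval -0.44 to 0.73, adjusted p = 0.707).

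**Figure D3:**
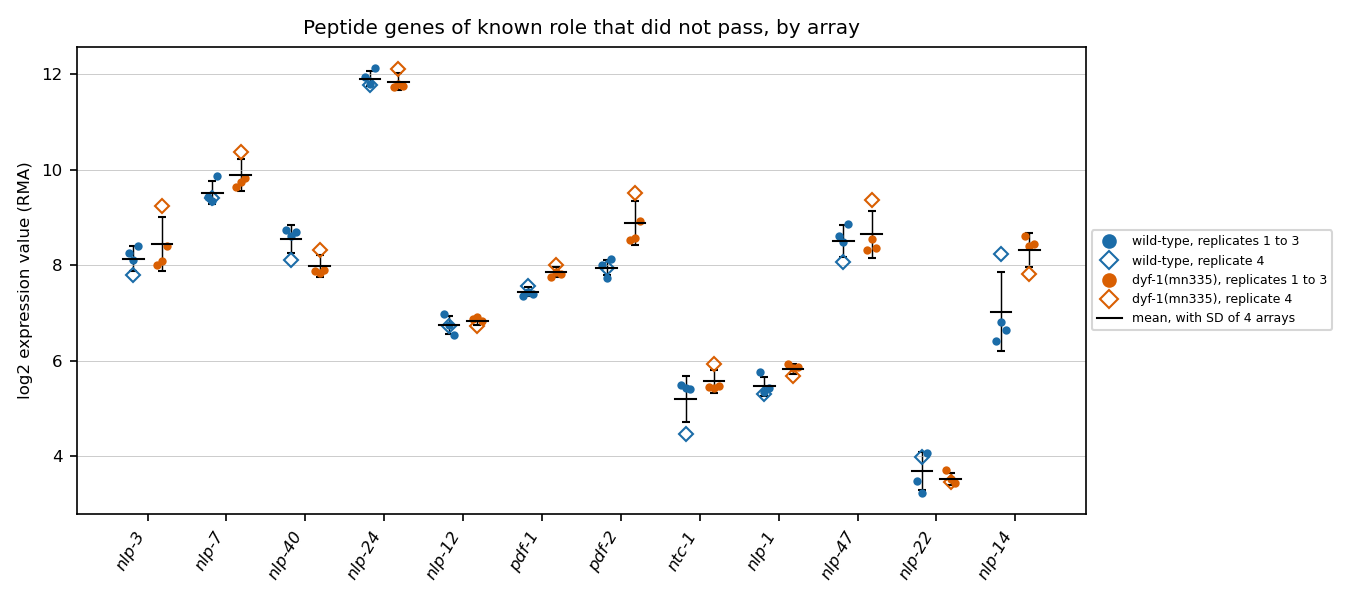
Log2 expression level of the 12 peptide genes on the list of roles that did not pass, in each array, with colours, symbols, mean and SD (n = 4) as in the plot of the called genes. For *pdf-1* and *pdf-2* the orange points lie above the blue ones, for *nlp-14* and *ntc-1* the wild-type diamond lies away from the circles, and *nlp-24* differs by only -0.062.

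Some genes did not overlap between the strains and still did not pass. In all, 19 of the 76 genes had every mutant array above every wild-type array and 4 had every mutant array below, beside 12.6% and 11.1% of all probe sets. Of these 23 genes, 12 were not called, with adjusted p from 0.0113 to 0.0704. The upper ones, apart from the PDF genes, were *nlp-59* at 0.96, *nlp-11* at 0.77, *nlp-35* at 0.69, *nlp-71* at 0.58, *nlp-61* at 0.53, *nlp-51* at 0.53 and *nlp-6* at 0.52. *nlp-59* had 7.59, 7.73, 8.05 and 8.38 in the mutant and 6.58, 7.0, 7.21 and 7.11 in wild-type (adjusted p = 0.0113). The lower ones were *nlp-26* at -0.95, *nlp-90* at -0.64 and *nlp-63* at -0.51, the latter pair dim in both strains. *nlp-26* had 5.42, 4.95, 5.72 and 5.46 in the mutant and 6.34, 6.65, 6.46 and 5.91 in wild-type (adjusted p = 0.012), and it was the second lower gene after centring and after cyclic loess. At an adjusted p under 0.05, 20 of the 76 genes were higher and 4 lower, beside 13.1% and 11.7% of all probe sets.

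For the remaining genes the strains overlapped and no difference passed over 8 arrays. The 95% interval of 47 of the 76 genes lay within a 2-fold change in either direction. *nlp-36* had 10.55 ± 0.41 in the mutant and 10.81 ± 0.27 in wild-type (SD, n = 4), a log2 fold change of -0.26 with an adjusted p of 0.421. In 15 genes both strains were dim, among them *nlp-22*, *nlp-2*, *nlp-23*, *nlp-45*, *nlp-70*, *nlp-78* and *nlp-119*. In 8 genes 1 strain was dim, and 2 of these, *nlp-60* and *nlp-62*, were called.

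In part of the set the replicate 4 arrays lay far from the others of their strain. Without wild-type replicate 4, 6 further genes were higher, *nlp-14*, *nlp-13*, *nlp-59*, *nlp-9*, *nlp-99* and *nlp-56*, and 7 further genes were lower, *nlp-33*, *nlp-88*, *nlp-40*, *nlp-4*, *nlp-26*, *nlp-50* and *nlp-57*. *nlp-9* had 9.04, 8.60, 8.82 and 7.78 in the mutant and 7.22, 7.33, 6.90 and 9.03 in wild-type. Mutant replicates 1 to 3 were above wild-type replicates 1 to 3, and replicate 4 was in the reverse order. The log2 fold change of *nlp-9* was 0.94 (adjusted p = 0.159) over 8 arrays and 1.41 (adjusted p = 0.0045) without wild-type replicate 4. *nlp-13* had 8.94, 8.88, 8.94 and 8.39 in the mutant and 7.37, 7.60, 7.34 and 8.54 in wild-type, and *nlp-99* had 10.96, 10.70, 10.86 and 10.55 and 9.54, 9.46, 9.89 and 10.60. Both showed the same order as *nlp-9*, with log2 fold changes of 1.08 and 0.89 over 8 arrays.

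*nlp-50* went the other way. It had 4.57, 4.86, 4.93 and 5.54 in the mutant and 6.71, 6.37, 6.76 and 4.15 in wild-type. Wild-type replicate 4 was more than 2 log2 units below each of the other wild-type arrays and below every mutant array. The log2 fold change of *nlp-50* was -1.02 (adjusted p = 0.19) over 8 arrays and -1.64 (adjusted p = 0.000731) without it. *nlp-57* likewise had 4.37, 4.59, 3.87 and 5.08 in the mutant and 5.95, 5.66, 6.18 and 4.34 in wild-type, with -1.06 over 8 arrays and -1.46 without wild-type replicate 4.

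Across the set, wild-type replicate 4 differed from the mean of wild-type replicates 1 to 3 by at least 1 in 13.2% of the genes, beside 13.8% of all probe sets. It lay that far above in 4 genes (*nlp-9*, *nlp-14*, *nlp-2* and *nlp-13*) and that far below in 6 (*nlp-50*, *nlp-5*, *nlp-57*, *nlp-25*, *nlp-76* and *nlp-4*). Mutant replicate 4 was the highest mutant array in 51 of the 76 genes. It was above the mean of mutant replicates 1 to 3 in 77.6% of the genes by a median of 0.45 over the set, beside 54.8% and 0.05 over all probe sets. In 29 genes mutant replicate 4 was the highest mutant array and wild-type replicate 4 the lowest wild-type array, which held for 22.3% of all probe sets. In 10 genes the reverse held, beside 19.9% of all probe sets. The part of these arrays in each difference beyond the values given was not tested.

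**Figure D4:**
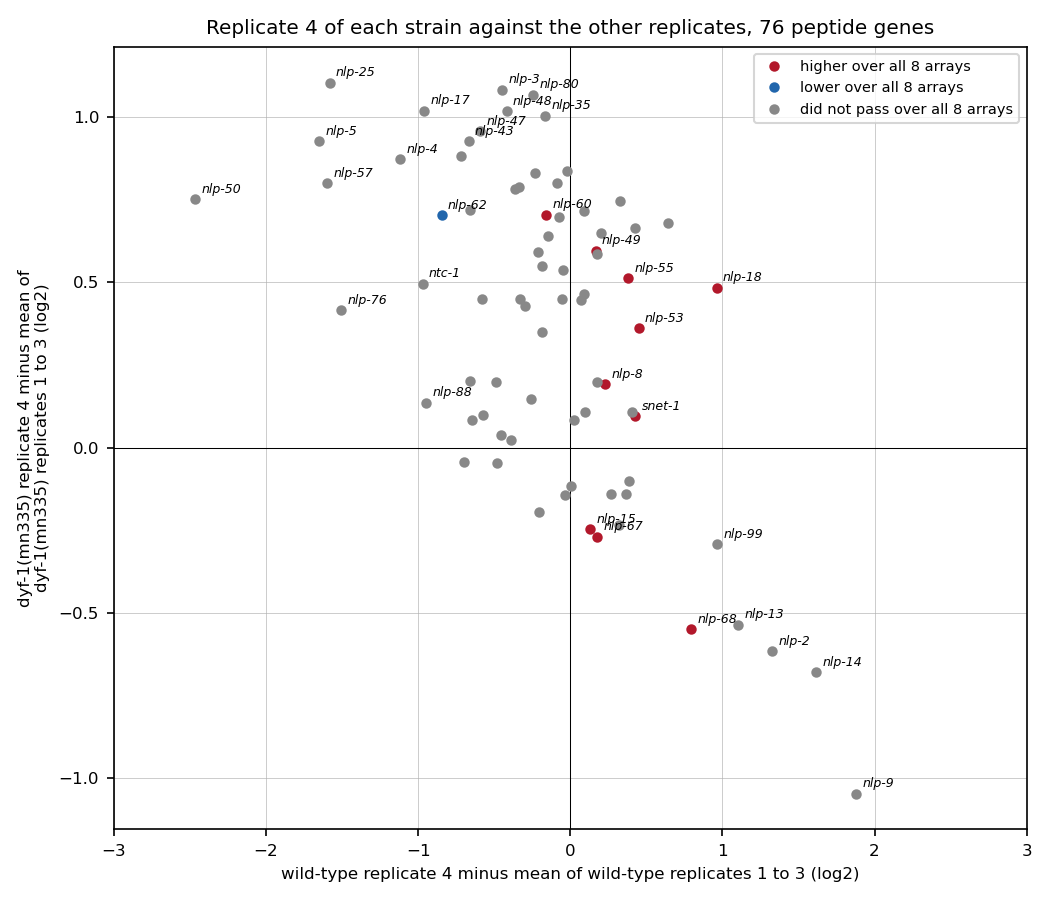
Offset of replicate 4 from the mean of replicates 1 to 3 in wild-type (horizontal axis, log2) and in *dyf-1(mn335)* (vertical axis, log2) for the 76 peptide genes, red for genes called higher, blue for the gene called lower and grey for the others. Most points lie above the horizontal line, with a median mutant offset of 0.45, and *nlp-9*, *nlp-14*, *nlp-2* and *nlp-13* lie at the lower right with wild-type offsets from 1.10 to 1.88.

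The position of the genes was taken from the RefSeq gene order. Of the 76 genes, 25 lie on chromosome X and 12 on chromosome V. *nlp-9* and *nlp-13*, which are neighbours on chromosome V, had the same order of arrays described above. *nlp-25* and *nlp-26*, on chromosome V with 1 gene between them, had log2 fold changes of 0.37 and -0.95. *nlp-45*, *nlp-22*, *nlp-23* and *nlp-2*, which follow each other on chromosome X, were all dim and none was called. *nlp-119*, *nlp-90* and *nlp-91*, a run on the same chromosome, had -0.21, -0.64 and -0.63, and none was called.

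The genes that make, release, receive and break down these peptides were followed in 4 lists. Beside them, 6.56% of all probe sets were called higher and 3.46% lower over 8 arrays. Of 11 measured genes of peptide processing, 1 was higher and 1 lower, with a median log2 fold change of 0.48. *sbt-1* encodes the chaperone of the proprotein convertase EGL-3. It had 9.93, 9.92, 9.91 and 9.63 in the mutant and 8.63, 8.94, 8.77 and 9.46 in wild-type, and rose by 0.90 (adjusted p = 0.0098). *pamn-1* encodes an enzyme that amidates the ends of peptides. It had 6.59, 6.72, 6.60 and 6.97 in the mutant and 8.09, 8.25, 8.32 and 8.11 in wild-type, and fell by 1.47 (adjusted p = 0.000286). Replicate 4 of each strain stayed within its own group for *pamn-1*. *pghm-1* and *pgal-1*, whose products carry out the single steps of amidation, had log2 fold changes of 0.95 (adjusted p = 0.0769) and 0.48 (adjusted p = 0.0493). *egl-3* itself differed by 1.40 (adjusted p = 0.0202) and the carboxypeptidase gene *egl-21* by 0.70 (adjusted p = 0.018), neither past the threshold. Without wild-type replicate 4 they differed by 1.79 and 0.84 and passed.

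Of 13 genes of peptide release, 4 were higher and 0 lower, with a median of 0.53. *unc-31* encodes CAPS, which is needed for the release of dense core vesicles. It had 6.56, 6.55, 6.57 and 6.39 in the mutant and 5.18, 5.45, 5.38 and 5.64 in wild-type, a rise of 1.10 (adjusted p = 0.000893). *unc-13*, which primes vesicles, rose by 1.32 (adjusted p = 0.00139), *ric-4*, the SNAP-25 gene, by 1.25 (adjusted p = 0.000666), and *tbc-8*, which acts in dense core vesicle maturation, by 1.26 (adjusted p = 0.00251). *ida-1*, which encodes a dense core vesicle membrane protein, had 1.57 and did not pass (adjusted p = 0.0244). Its levels were 9.29, 9.20, 9.20 and 8.26 in the mutant and 6.96, 7.35, 6.72 and 8.67 in wild-type, with wild-type replicate 4 above mutant replicate 4. *ric-4*, *unc-13*, *snb-1*, *unc-64* and *ric-19* of this list are also among the pan-neuronal markers.

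Of 12 receptor genes for NLP, PDF and nematocin peptides, 4 were higher and 0 lower, with a median of 0.66. The PDF receptor gene *pdfr-1* had 8.98, 8.97, 9.02 and 9.14 in the mutant and 7.81, 7.70, 8.02 and 8.12 in wild-type, a rise of 1.11 (adjusted p = 0.000854), beside 0.42 and 0.93 for its ligand genes. *seb-3* had 6.85, 6.92, 7.06 and 6.97 in the mutant and 5.15, 5.17, 5.50 and 6.03 in wild-type, a rise of 1.48 (adjusted p = 0.0013), beside 1.0 for *nlp-49*. Here ligand and receptor were both called. *ckr-2*, a receptor of NLP-12, rose by 0.87 (adjusted p = 0.00383), beside 0.079 for *nlp-12*, whereas *ckr-1* had 0.73 (adjusted p = 0.0365). *sprr-1*, a relative of the insect sex peptide receptor, rose by 0.82 (adjusted p = 0.00984). *npr-17* had 0.73 (adjusted p = 0.018) beside -0.062 for *nlp-24*, *npr-11* had -0.18 beside 0.37 for *nlp-1*, and *aex-2* had -0.011 beside -0.55 for *nlp-40*. The nematocin receptor genes *ntr-1* and *ntr-2* had -0.074 and 0.59, and neither passed.

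Of 6 neprilysin-like peptidase genes, *nep-21* rose by 0.94 (adjusted p = 0.00603) and none fell. *nep-2*, whose product limits SNET-1, had 9.64, 9.65, 9.50 and 8.94 in the mutant and 7.62, 8.07, 7.61 and 9.34 in wild-type. Wild-type replicate 4 lay above mutant replicate 4, and the log2 fold change of 1.27 (adjusted p = 0.0346) did not pass. Together the 4 lists held 10 higher genes and 1 lower one over 8 arrays, and 18 and 1 without wild-type replicate 4. Of all probe sets, 13.3% were then higher and 12.9% lower. Without that array the higher counts were 4 in processing, 7 in release, 4 among the receptors and 3 in breakdown. After centring the 4 lists held 7 higher genes and 1 lower one, beside 5.17% and 5.64% of all probe sets. They held 8 and 1 without mutant replicate 4, beside 5.99% and 2.46%. There *sbt-1* (adjusted p = 0.013) and *nep-21* (adjusted p = 0.0108) did not pass.

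**Figure D5:**
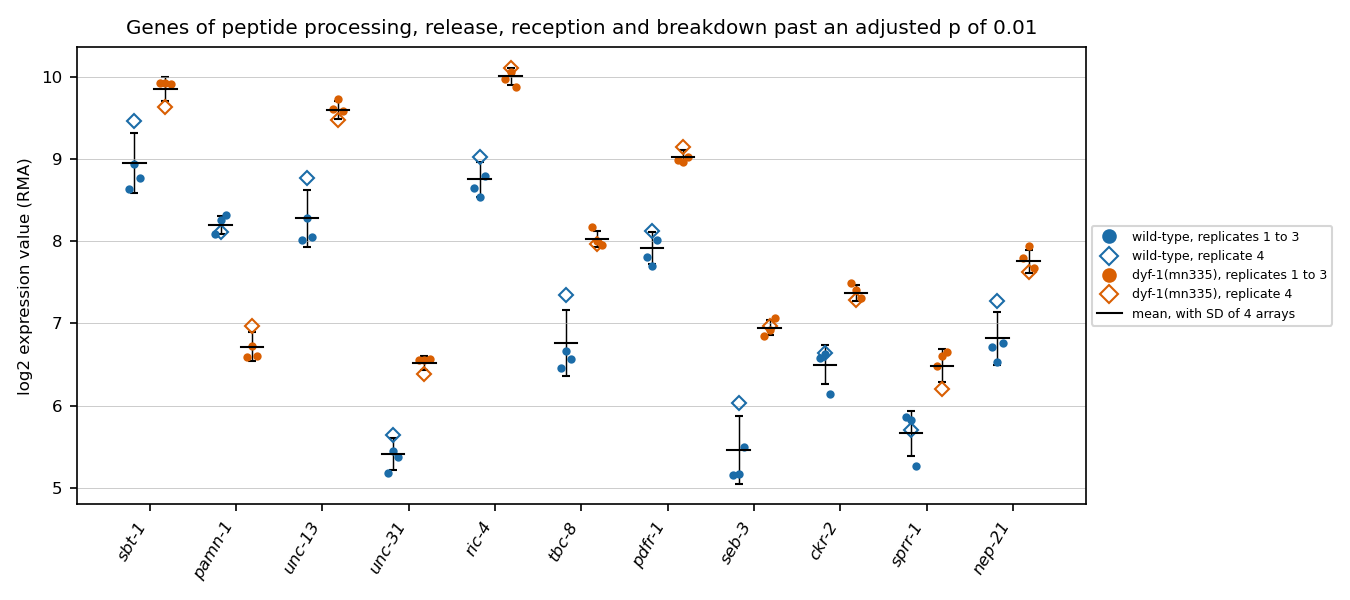
Log2 expression level of the 11 called genes of peptide processing, release, reception and breakdown in each array, with colours, symbols, mean and SD (n = 4) as in the plot of the called peptide genes. The 10 higher genes have all orange points above all blue ones, and *pamn-1* has all orange points below.

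Markers of other tissues were measured in the same arrays. Of 8 pharynx markers 1 was higher and 0 lower, with a median log2 fold change of 1.17. Before adjustment 7 pharynx markers had a p under 0.05, all in the higher direction, and 5 were called without wild-type replicate 4. They had a log2 summed level of 12.31 to 12.81 in the mutant and 11.13 to 12.16 in wild-type. Of 9 epidermis markers 3 were higher and 1 lower (7 and 1 at an unadjusted p under 0.05) and the median was 0.71, with summed levels of 13.59 to 13.71 against 12.72 to 13.23. The epidermis markers did not move as one. The higher ones were *wrt-2* at 3.73, *col-10* at 2.02 and *dpy-7* at 0.99, and the lower one was *col-19* at -0.89. Of 11 intestine markers 1 was higher and 2 lower (1 and 3 unadjusted) and the median was -0.12, with 14.09 to 14.21 against 14.22 to 14.30. Of 13 germline markers 0 were higher and 0 lower by limma and the median was 0.086. Their summed levels were 15.11, 15.0, 15.07 and 14.51 in mutant replicates 1 to 4. In wild-type replicates 1 to 4 they were 14.58, 14.83, 14.49 and 15.21. Mutant replicates 1 to 3 thus lay above wild-type replicates 1 to 3, and replicate 4 was in the reverse order. At an unadjusted p under 0.05, 0 germline markers were higher and 2 lower. *rol-6* and *bli-1* of the epidermis list and *phat-1* and *phat-2* of the pharynx list were dim in wild-type. The part of these tissues in the levels of the peptide genes was not tested. Beside the 76 genes, the 31 FMRFamide-related peptide genes had 3 higher and 0 lower with a median of 0.24, and the 40 insulin-like peptide genes had 2 and 2 with a median of -0.26. The 17 epidermal antimicrobial *nlp* and caenacin genes had 0 and 2 with a median of -0.30. Without wild-type replicate 4 these counts were 6 and 1 for the FMRFamide-related genes and 2 and 11 for the insulin-like genes. They were 0 and 7 for the epidermal genes. Of all probe sets, 6.56% were higher and 3.46% lower over 8 arrays, and 13.3% and 12.9% without that array. The differences between these families were not tested.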

How the data were processed

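The authors extracted RNA from whole worms, hybridised it to Affymetrix arrays and, per the labels and methods, applied RMA (background adjustment, quantile normalisation and probe summary) in the R package oligo. The deposited values are log2 levels of 29317 probe sets in 8 arrays, with 0 missing. The quantile step is meant to give the arrays a common distribution, but the deposited probe set values kept an offset between the strains. Their array medians were 5.30 to 5.36 in *dyf-1(mn335)* and 5.14 to 5.21 in wild-type. Array numbers limit the precision. Probe sets were named from the platform annotation (1 gene for 25546, several for 646, none for 3125). All 76 genes matched RefSeq (WBcel 235) by Entrez ID. No genome build is given for the probes, so that no coordinates are printed. Strains were compared by limma 3.58.1 (lmFit, eBayes; R 4.3.3) with strain as the only term, in two-sided tests, with Benjamini-Hochberg adjustment across the whole array. The figure legends of the study give the replicates as biologically independent, which the labels do not state. The labels and methods give 4 replicates per strain, whereas sheet descriptions of the study's array data give 3, and all 8 deposited arrays were used. Where cultures were shared, p-values measure only the spread between samples. The genes named are the called ones and those on the list of roles, in full. Then come genes without overlap, bright genes, genes whose call changed without wild-type replicate 4, and the called genes of each pathway list. *egl-3*, *egl-21*, *ida-1*, *nep-2*, *pghm-1*, *pgal-1*, the uncalled receptor genes, genes listed by chromosome or as dim, and *nlp-5*, *nlp-25* and *nlp-76* are outside this rule and were picked with their values in view. The genes and lists were chosen with earlier results of these data known. Alternatives were an adjusted p under 0.05, array weights, an intensity trend with robust spread, centring, cyclic loess, a filter on dim values (mean log2 level under 5), the replicate number as a block, and leaving out arrays. Figures were drawn with matplotlib 3.10.9.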

Additional observations from a re-analysis of the deposited data

Results flagged for a closer look

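In each strain the 4 arrays of every peptide gene were checked for a value far from the rest by Dixon's ratio. Of 152 groups of 4 arrays, 19 had such a value, where chance gives about 1 in 20 groups. Mutant replicate 4 was that array in 11 groups, wild-type replicate 4 in 5, wild-type replicate 3 in 2 and mutant replicate 1 in 1.

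Mutant replicate 4 was high for *nlp-18* (9.99, with the other mutant arrays at 9.49 to 9.51), *nlp-55* (8.37), *nlp-35* (8.45, others 7.41 to 7.50), *nlp-6* (9.43), *ntc-1* (5.94), *nlp-25* (8.67, others 7.50 to 7.65), *nlp-43* (8.87, others 7.90 to 7.98), *nlp-33* (8.66), *nlp-78* (2.77, a dim level) and *nlp-40* (8.32). It was low for *nlp-13* (8.39, others 8.88 to 8.94). Wild-type replicate 4 was low for *ntc-1* (4.47, others 5.40 to 5.50), *nlp-76* (4.90, others 6.39 to 6.43), *nlp-33* (8.45, others 9.06 to 9.12) and *nlp-50* (4.15, others 6.37 to 6.76), and high for *nlp-69* (5.73, others 5.63 to 5.64). Wild-type replicate 3 was high for *nlp-60* (4.52) and *nlp-7* (9.87). Mutant replicate 1 was low for *nlp-90* (2.33, a dim level).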

How the results depend on the processing

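All 11 called genes kept their direction under every alternative that tested them (the filter on dim values left out *nlp-60*), with log2 fold changes of 1.37 to 1.64 for *nlp-53* and of -1.65 to -1.16 for *nlp-62*. Higher and lower counts of the 76 genes were 10 and 1 over all arrays, 20 and 4 at an adjusted p under 0.05, 19 and 13 with array weights, 18 and 14 without both replicate 4 arrays, 7 and 2 after centring, 9 and 2 after cyclic loess, 8 and 1 with an intensity trend, and 9 and 1 of 57 with the filter. *nlp-15*, *nlp-49* and *nlp-55* lost their call after centring, *nlp-15* after cyclic loess, and *nlp-15* and *nlp-55* with the trend. Leaving out single arrays gave 4 to 16 and 0 to 8. Over all probe sets, 1924 and 1015 became 3848 and 3419 at an adjusted p under 0.05, 5489 and 5391 with weights, 4977 and 4781 without both replicate 4 arrays, 1653 lower after centring (1515 higher), 1703 and 1161 after cyclic loess, 1781 and 911 with the trend, 1404 and 786 of 15520 with the filter, and 932 to 3893 and 324 to 3788 without single arrays. In the pathway lists, 10 and 1 became 19 at an adjusted p under 0.05, 23 and 2 with weights, 22 without both replicate 4 arrays, and 5 to 18 without single arrays. These counts were 7 and 1 after centring. The median of the 76 genes, 0.23, was 0.074 after centring, beside -0.19 over all probe sets. For the 76 genes it was 0.054 without both replicate 4 arrays, beside -0.046 over all probe sets. When single arrays were left out, the median of the 76 genes was 0.12 to 0.28. The labels share replicate numbers, but same-numbered arrays did not deviate together (correlations -0.31, 0.01, -0.20 and -0.57). With the replicate number as a block, 1 gene (*nlp-53*) was higher and 0 lower, with 0 and 0 in the pathway lists and 236 and 79 over all probe sets.

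Reversed signs occurred only in genes that did not pass over 8 arrays. With weights they were *nlp-10* (-0.058), *nlp-22* (0.016), *nlp-25* (-0.12), *nlp-43* (-0.13), *nlp-47* (-0.11), *nlp-58* (-0.17) and *nlp-64* (-0.14). Without both replicate 4 arrays they were *nlp-10* (-0.062), *nlp-16* (-0.0092), *nlp-25* (-0.31), *nlp-3* (-0.084), *nlp-43* (-0.25), *nlp-47* (-0.24), *nlp-48* (-0.088), *nlp-58* (-0.16), *nlp-64* (-0.15) and *nlp-80* (-0.0022). After cyclic loess *nlp-24* was 0.00090. After centring *nlp-10* (-0.0030), *nlp-12* (-0.076), *nlp-43* (-0.0100), *nlp-47* (-0.010) and *nlp-58* (-0.13) were reversed. When single arrays were left out, the sign also turned, over ranges of -0.030 to 0.62 for *nlp-25*, -0.085 to 0.51 for *nlp-2*, -0.012 to 0.24 for *nlp-10*, -0.086 to 0.24 for *nlp-43*, -0.094 to 0.27 for *nlp-47*, -0.11 to 0.11 for *nlp-58*, -0.15 to 0.010 for *nlp-24*, -0.18 to 0.0076 for *nlp-32* and -0.42 to 0.058 for *nlp-79*. The cause of these changes was not tested.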
